A study of Mus musculus with 40 samples.

Results

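Tissue from the fibrotic scar was compared with tissue from a remote region without injury, dissected from the same mouse's heart, 42 days after a heart attack had been modelled in adult mice of the inbred C57BL/6 strain. In every mouse surgeons had permanently ligated the left anterior descending coronary artery, on which most of the left ventricle depends. The comparison rests on 8 of the 40 RNA-seq libraries of the series, chosen by their labels as the injured and uninjured libraries of day 42. These are 4 scars and 4 remote regions, paired within the mice labelled B1, B3, B9 and B12. The other 32 libraries come from days 3, 7, 14 and 21, with 4 mice a day, and served to estimate the spread. Both regions had been through the ligation, so the remote region is myocardium of an infarcted heart and not that of a healthy one, and no heart without ligation was analysed here. The B labels occur only on day 42, and the mice of the earlier days carry A labels.

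After a coronary artery is closed, the heart muscle that it fed dies and is not regrown in the adult mouse. Fibroblasts fill the gap with extracellular matrix, chiefly fibril-forming collagens, which small leucine-rich proteoglycans, matricellular proteins and lysyl oxidases space, decorate and cross-link as the scar matures. Late in this course fibroblasts leave the contractile, actin-rich state of the first weeks and take up genes of tendon, cartilage and bone, while surviving heart muscle at the border and far from it carries the load and turns on genes of the fetal heart.

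The values are the authors' RPKM, reads per kilobase of gene scaled to library size. All differences below are on the scale of log2(RPKM + 1), scar minus remote, and the scale understates the change of genes with low values. They are given with their standard errors (SE, n = 4 mice a region), for which the spread was estimated over all 40 libraries and not from day 42 alone. The limma test with the mouse as a block was fitted to 11390 genes that reached 1 RPKM in 4 or more libraries of the 40. A gene was called at a Benjamini-Hochberg adjusted p under 0.05. Values by mouse are given in the order B1, B3, B9 and B12 throughout. The reads worked back from the RPKM came to 18931376 to 23118876 in the 4 scars and 23211966 to 33596397 in the 4 remote regions, with a median of 577 reads per gene and library. The share of these reads from mitochondrial genes was 8.58%, 8.49%, 8.2% and 5.86% in the scars and 19.8%, 14.95%, 28.6% and 24.6% in the remote regions. The library size behind the deposited RPKM, relative to the total of recovered reads, was 0.979 to 1.06 in the scars and 0.558 to 0.672 in the remote regions. When every library was rescaled to its own total, the median difference over all genes moved from 0.03 to 0.60. Differences are given on the deposited scale, and the rescaled value stands beside a difference of a named gene where the rescaling turned its direction or changed its call. The X-linked Xist RNA was found in both regions of mice B3 and B9 and the Y-linked Ddx3y in both regions of mice B1 and B12.

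At day 42 the scar differed from the remote region in most of the genes tested. The adjusted p passed for 4611 genes that were higher in the scar (40.5% of those tested) and for 4409 that were lower (38.7%). With a log2 difference of at least 1, 1170 genes were higher (10.3%) and 1505 were lower (13.2%). All 4 scar values lay above all 4 remote values for 4068 genes (35.7%) and below them for 3995 (35.1%). With calls this common, the genes below are described by the size of their difference. The even split depended on the scaling, since 51.1% of the calls were higher on the deposited scale and 81.0% after rescaling to the total of reads. All 4611 higher calls remained under the rescaling, 1903 of the 4409 lower calls remained, and 1221 lower calls turned higher. In bulk tissue, fewer cells of a type and less RNA per cell cannot be told apart.

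**Figure D1:**
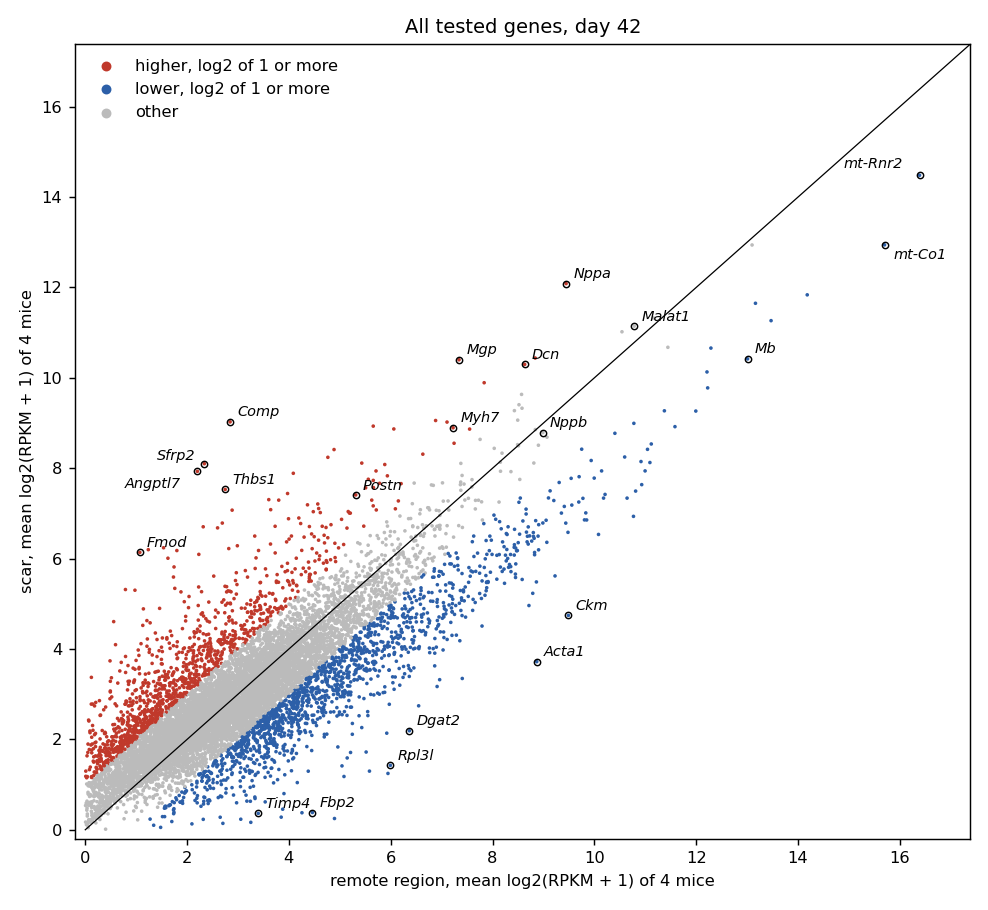
Mean log2(RPKM + 1) of the 4 remote regions (horizontal) against that of the 4 scars (vertical) for the 11390 genes tested at day 42, with the line of equal levels. Red and blue points are the 1170 and 1505 genes called with a log2 difference of at least 1. The labelled matrix genes lie far above the line. The labelled muscle and mitochondrial genes lie below it, apart from Nppa and Myh7, which lie above.

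The regions carried the markers that their labels imply, with some heart muscle RNA in every scar. Of 26 tested markers of cardiomyocytes, the contracting cells of the heart, 24 were lower and 1 was higher in the scar. Their summed level was 8323, 8958, 7046 and 5287 RPKM in the scars and 31447, 28645, 30749.9 and 30270.2 RPKM in the remote regions. Every scar was far below every remote region, and the scar of mouse B12 held the least. The summed level of 10 fibrillar collagen genes was 726, 903, 995 and 1058 RPKM in the scars and 63, 85.6, 68.9 and 163 RPKM in the remote regions. The groups did not overlap in this sum either, and the remote region of mouse B12 held the most collagen RNA of the 4. Of 9 lung genes 0 were among the genes tested. The atrial markers Myl7, Myl4, Sln and Bmp10 were not among them either. Of 10 listed atrial genes 5 were tested, of which 3 were higher and 1 was lower in the scar (median 0.38, highest 4.39). Their summed level was 3445 to 6193 RPKM in the scars and 443 to 1441 RPKM in the remote regions. Most of that sum was Nppa, also a gene of the stressed heart, at 3200.4 to 5948 RPKM in the scars and 334 to 1316 in the remote regions. The highest difference was that of Dkk3, which is also on the list of secreted Wnt modulators. The sum and the highest value therefore do not describe the atrial list as a group. Of 13 skeletal muscle genes Ckm, Acta1 and Tnnt3 were tested, of which heart muscle also makes the first pair. Tnnt3 was higher in the scar, and the other 2 were lower. Whether stray atrial or skeletal muscle tissue added to the scars was not tested.

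The largest excess in the scar belonged to secreted proteins, several of them known from tendon, cartilage or cornea. Comp, cartilage oligomeric matrix protein, a pentamer that binds collagen and guides its fibrils in tendon and cartilage, stood at 469.6, 483, 458 and 705 RPKM in the scars and 2.81, 6.31, 3.52 and 20.2 in the remote regions. Every scar was far above every remote region, and the remote region of mouse B12 held more than the other 3. The difference was 6.18 ± 0.37 (limma adjusted p = 4.26e-11), the highest of all genes that passed. Sfrp2, a secreted Frizzled-related protein that binds Wnt ligands, stood at 226, 193, 274 and 467 RPKM in the scars and 2.3, 4.1, 2.77 and 9.3 in the remote regions, a difference of 5.76 ± 0.31. Angptl7, a secreted angiopoietin-like protein first known from the cornea, was at 243, 294, 266 and 183 RPKM in the scars and 2.93, 4.32, 2.87 and 4.53 in the remote regions. Its 4 scars and 4 remote regions each kept within a narrow band, and the difference was 5.73 ± 0.28 (limma adjusted p = 1.34e-12). Fmod, fibromodulin, a small proteoglycan of tendon that steers collagen cross-linking, went from 0.613, 0.784, 0.902 and 2.56 RPKM in the remote regions to 58.3, 51.6, 72.5 and 106 in the scars (5.07 ± 0.22). 1500015O10Rik, which encodes the secreted protein augurin, differed by 4.96 ± 0.26.

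The remaining genes among the 12 with the highest differences were also secreted or matrix proteins. Thbs1, thrombospondin 1, an activator of latent TGF-beta, differed by 4.78 ± 0.28. Abi3bp, a collagen-binding matrix protein, differed by 4.70 ± 0.17, and Col8a2, a chain of the network-forming type VIII collagen, by 4.53 ± 0.15. Dkk3, a secreted protein of the Dickkopf family, differed by 4.39 ± 0.29, and Lox, the lysyl oxidase that starts collagen cross-links, by 4.39 ± 0.20. Ltbp2, a microfibril protein related to the binding proteins of latent TGF-beta, differed by 4.38 ± 0.35. Spp1, osteopontin, a phosphoprotein of bone that macrophages also secrete, differed by 4.33 ± 0.31. All 12 were higher in the scar of 4 of 4 mice, with no overlap between the groups (largest limma adjusted p = 1.89e-09).

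The largest deficits belonged to muscle proteins and to genes of muscle energy use. Acta1, skeletal alpha-actin, a fetal actin that the adult heart makes under load, stood at 25.2, 24.4, 7.84 and 4.11 RPKM in the scars and 587, 401, 265 and 761 in the remote regions. The groups did not overlap, both regions varied several-fold between mice, and the difference was -5.15 ± 0.48 (limma adjusted p = 1.78e-08). Ckm, the creatine kinase of the sarcomere, stood at 35.6, 45.6, 20.3 and 13.2 RPKM in the scars and 832, 733, 661 and 659.8 in the remote regions (-4.75 ± 0.30). Rpl3l, a muscle form of the ribosomal protein L3, was at 2.68, 2.22, 1.11 and 1.08 RPKM in the scars and 70.1, 54, 72.9 and 56 in the remote regions (-4.57 ± 0.19). Lrtm1, a leucine-rich repeat membrane protein, differed by -4.70 ± 0.25, and Myot, myotilin, a protein of the Z-disc that anchors actin filaments, by -4.28 ± 0.18. Dgat2, which makes triglyceride, differed by -4.18 ± 0.14, Fbp2, the muscle fructose bisphosphatase, by -4.08 ± 0.17, and Fndc5, the precursor of irisin, by -4.06 ± 0.21. Ces1d, a carboxylesterase that breaks down triglyceride, differed by -3.90 ± 0.20, Scd4, a heart form of stearoyl-CoA desaturase, by -3.88 ± 0.23, the gene model Gm34302 by -4.65 ± 0.21 and the mitochondrial tRNA mt-Ti by -3.83 ± 0.32. Each was lower in the scar of 4 of 4 mice. The actin and carboxylesterase genes have near-identical relatives, so the authors' counting could have split their reads, and their values are uncertain to that degree.

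**Figure D2:**
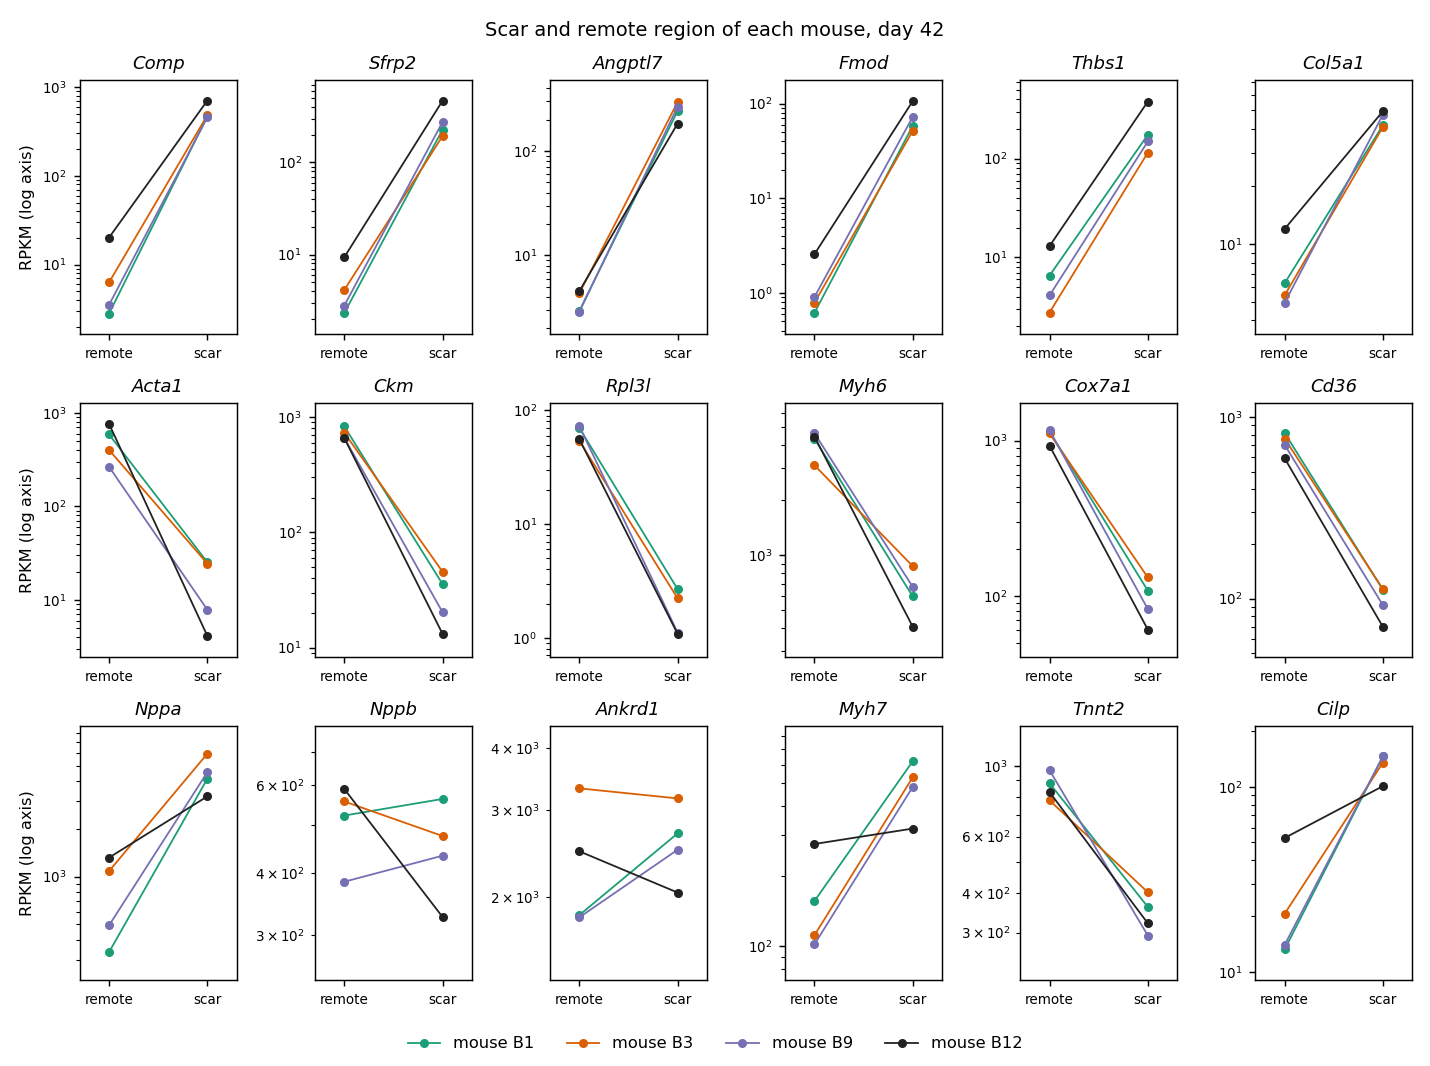
RPKM (log axis) of 18 genes in the remote region and the scar of mice B1, B3, B9 and B12 at day 42, with a line for each mouse. Matrix genes climb in all 4 mice, and so do the heart muscle genes Nppa and Myh7. The other genes of muscle and energy use descend in all 4, except Nppb and Ankrd1, which climb in some mice and descend in others.

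All 10 fibrillar collagen genes tested were higher in the scar, with a median difference of 2.46 against 0.03 over all genes. Col1a1, the main chain of type I collagen, was at 79.3, 84.2, 125 and 127 RPKM in the scars and 3.64, 3, 3.44 and 15.3 in the remote regions (4.08 ± 0.31). The groups did not overlap, and the remote region of mouse B12 stood well above the other 3. Col3a1, the partner chain of early scars, was at 374, 519, 536 and 542 RPKM in the scars and 33.1, 53, 40.2 and 84.3 in the remote regions (3.28 ± 0.21). Type V collagen, which sits inside type I fibrils and sets their width, has 3 chain genes. Col5a1 was at 41.7, 40.9, 47.4 and 49.4 RPKM in the scars and 6.24, 5.4, 4.93 and 12 in the remote regions (2.56 ± 0.20), and Col5a2 differed by 2.99 ± 0.19. Col5a3 was at 3.04, 3.83, 4.27 and 5.84 RPKM in the scars and 1.84, 2.2, 1.94 and 5.54 in the remote regions, a difference of only 0.50 ± 0.12. The remote region of mouse B12 was above the scars of the other 3 mice in Col5a3. The limma adjusted p of Col5a3, 7.49e-04, became 0.123 when the model had no mouse block and so did not pair the regions. Col11a1, a minor fibrillar chain of cartilage that copolymerises in the same way, differed by 2.36 ± 0.18. Among 16 other collagens 15 were higher and 0 lower (median 1.58), among them Col8a1 (2.40), Col12a1 (3.39) and Col14a1 (3.17), and Col12a1 and Col14a1 coat the surface of fibrils. Col4a1 of the basement membrane differed by 0.50 ± 0.15, and the 18 basement membrane genes split into 11 higher and 4 lower (median 0.47).

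The proteins that finish and space the fibrils were higher too. All 12 small leucine-rich proteoglycans were higher (median 2.06), among them Bgn, biglycan (3.48 ± 0.16), Prelp (4.10 ± 0.15), Ogn, osteoglycin (1.68 ± 0.12), and Dcn, decorin (1.67 ± 0.14). Decorin was abundant in both regions, at 1340.2, 1258, 1310.0 and 1135 RPKM in the scars and 369.8, 439, 343 and 439 in the remote regions. Of 28 genes of collagen processing and cross-linking 25 were higher and 2 lower (median 1.19). Lox led them, Loxl1 differed by 2.68 ± 0.16, Pcolce2, an enhancer of procollagen trimming, by 1.70 ± 0.12, and Serpinh1, the collagen chaperone of the endoplasmic reticulum, by 0.78 ± 0.11. Of 18 elastic fibre genes 17 were higher, including Eln, elastin (3.38 ± 0.24), and Mfap4 (3.44 ± 0.22), while Emilin2 was lower (-1.29 ± 0.16). Of 27 matricellular genes 24 were higher and 2 lower (median 2.39). Fn1, fibronectin, differed by 4.19 ± 0.23, and Postn, periostin, a protein of activated fibroblasts, was at 161, 157, 176 and 182 RPKM in the scars and 21.1, 54.1, 25.4 and 76.5 in the remote regions (2.10 ± 0.43). Periostin varied most in the remote regions, where mice B3 and B12 stood above the other pair. Vtn, vitronectin, was lower at 3.75, 4.6, 2.67 and 3.01 RPKM in the scars and 17.2, 22.2, 17.6 and 19.6 in the remote regions (-2.17 ± 0.09).

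Of 28 listed genes of cartilage, tendon and bone 18 were tested, of which 16 were higher and 1 was lower, with a median of 2.62. A gene near 0 in the remote regions could pass the filter through its scar libraries alone. For such members a higher level in the scar was favoured by the filter, and the count describes the tested members only. The list shares Comp, Fmod and others with the matrix lists above. Its transcription factors were all higher, with Sox9, the regulator of cartilage, at 7.26, 8.01, 9.64 and 9.22 RPKM in the scars and 0.341, 0.539, 0.652 and 0.722 in the remote regions (2.61 ± 0.19), Runx2 of bone at 1.08 ± 0.07 and Scx, scleraxis, of tendon at 1.13 ± 0.17. Mgp, matrix Gla protein, an inhibitor of calcification, was among the most abundant of these RNAs at 1189.6, 1569, 1476 and 1207 RPKM in the scars and 114, 242, 151 and 163 in the remote regions (3.06 ± 0.14). Chad, chondroadherin, a cartilage protein that binds cells and collagen, was at 2.94, 7.42, 7.04 and 7.35 RPKM in the scars and 0.101, 0.0241, 0.102 and 0.115 in the remote regions, with the scar of mouse B1 well below the other 3 (2.66 ± 0.19). Acan, aggrecan, differed by 1.60 ± 0.22 and Cytl1, a cytokine-like protein of cartilage, by 3.09 ± 0.22. Alpl, the alkaline phosphatase of mineralising tissue, was called lower on the deposited scale only (-0.73 ± 0.16, rescaled -0.08), and after rescaling the list counted 17 higher and 0 lower.

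**Figure D3:**
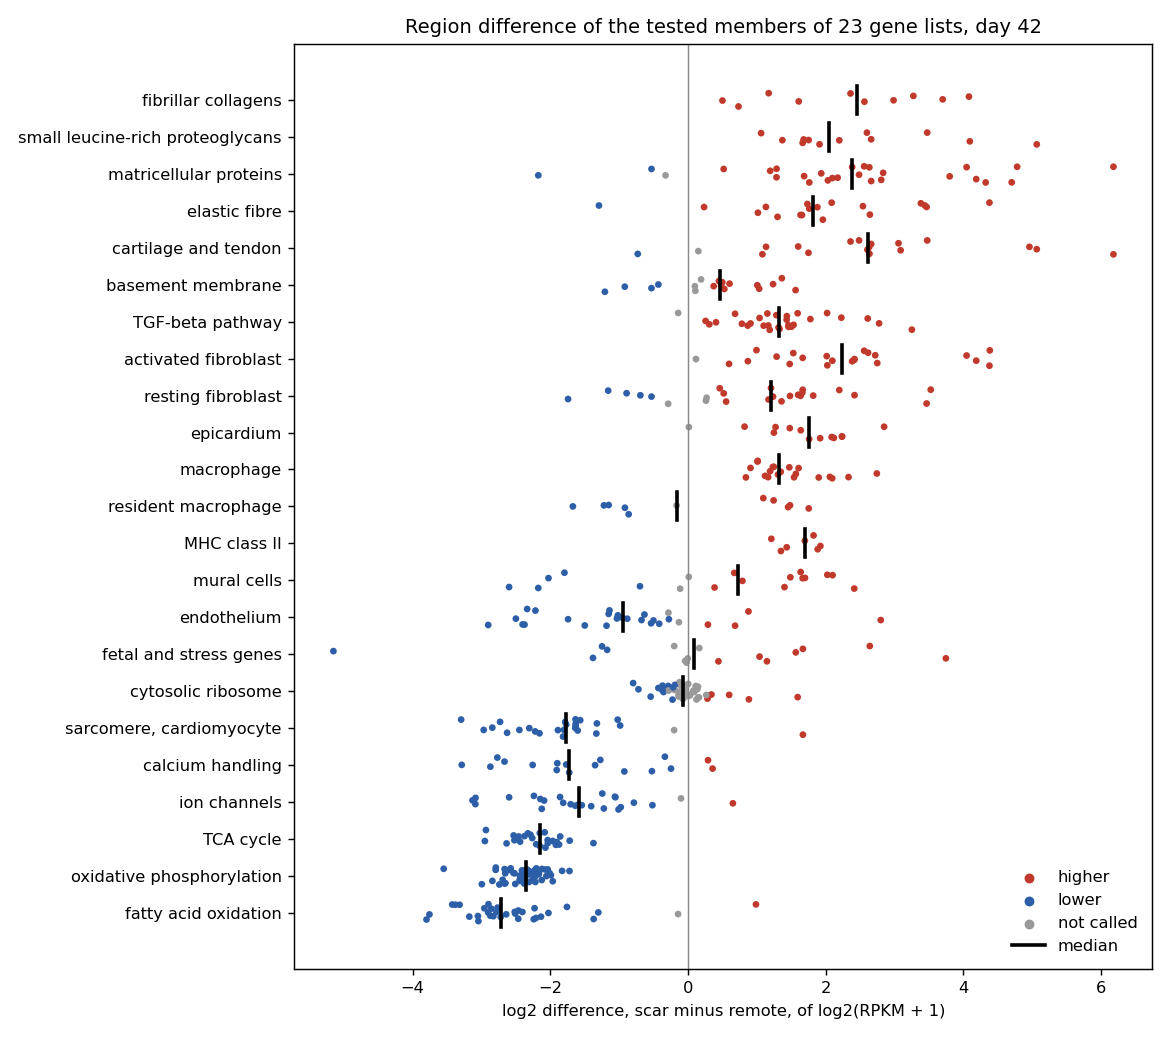
Log2 difference, scar minus remote, of each tested member of 23 gene lists at day 42, with 1 point per gene, a black bar at the median, and color for the call. Matrix lists lie to the right of 0, energy and contraction lists to the left, and the basement membrane, resident macrophage, fetal and stress and ribosome lists hold members on both sides.

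Core promoter sequences of 5 genes with differences of over 2 on the log2 scale are shown, since each holds the TATA box letters TATAAA close to its start, in capitals. They are from RefSeq on the GRCm38.p6 build, 5' to 3' on the strand of the gene, and end at or before the base next to the RefSeq start. Sprr1a (chr3:92485896-92486001, minus strand) also holds TGAGTCA, a letter match to the AP-1 motif, in capitals. The others are Nppa (chr4:148000602-148000721, plus strand), Chad (chr11:94564927-94565046, plus), Myoc (chr1:162639030-162639149, plus) and Acta1 (chr8:123894776-123894895, minus). TATAAA lies 43 to 38 bases before the RefSeq start in Sprr1a, 28 to 23 in Chad and 26 to 21 in Myoc. In Nppa it lies 9 to 4 bases before that start and in Acta1 7 to 2. GENCODE starts Acta1 at 123894751, downstream of the RefSeq start used. Whether these letters act as TATA boxes was not tested.
Sprr1a: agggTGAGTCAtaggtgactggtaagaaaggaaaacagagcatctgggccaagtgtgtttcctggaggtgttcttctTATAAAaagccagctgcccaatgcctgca
Nppa: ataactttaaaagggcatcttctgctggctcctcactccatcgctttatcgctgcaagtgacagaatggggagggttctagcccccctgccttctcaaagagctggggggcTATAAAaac
Chad: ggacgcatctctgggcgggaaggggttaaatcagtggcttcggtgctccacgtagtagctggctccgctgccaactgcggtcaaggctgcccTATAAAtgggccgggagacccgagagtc
Myoc: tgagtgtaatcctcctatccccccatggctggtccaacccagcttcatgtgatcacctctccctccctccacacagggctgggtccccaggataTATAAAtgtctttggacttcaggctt
Acta1: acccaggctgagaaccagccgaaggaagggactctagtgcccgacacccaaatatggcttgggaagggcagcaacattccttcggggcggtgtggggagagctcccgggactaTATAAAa
The first 4 belong to genes that were higher in the scar and Acta1 to the gene with the lowest difference, so the letters occur on both sides. In the 250 bases before the start, on either strand, TATAAA was present in 9.79% of 1073 promoters of genes higher by a log2 of at least 1. The share was 7.98% of 1454 promoters of genes lower by that much, 5.86% of 8479 promoters of the other tested genes and 12.4% of all 32851 RefSeq promoters. TGANTCA, the AP-1 motif, was in 6.9%, 4.81%, 4.25% and 6.75% of the same sets. The NRF1 motif, a match to the site of nuclear respiratory factor 1, was in 2.33%, 8.12%, 8.52% and 3.74% of them, so it was least frequent among the promoters of the higher genes. A letter match is no binding site, and these are shares of sets that the day 42 difference itself chose.

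Fibroblast genes were higher, both those of the activated and most of those of the resting state. Of 22 genes of activated fibroblasts 21 were higher and 0 lower (median 2.24), and their summed level was 893 to 1234 RPKM in the scars and 136 to 277 RPKM in the remote regions. Meox1, a transcription factor of activated fibroblasts, was at 32.8, 23.2, 31.9 and 33.7 RPKM in the scars and 7.81, 7.45, 8.36 and 18.2 in the remote regions (1.53 ± 0.20). The groups did not overlap, and the remote region of mouse B12 was the highest of the 4. Of 25 genes of resting fibroblasts 17 were higher and 5 lower (median 1.21). Tcf21, the transcription factor of the resting lineage, differed by 2.42 ± 0.10, Pdgfra by 1.48 ± 0.09, Dpt, dermatopontin, by 1.36 ± 0.14 and C3, the central complement protein, by 3.53 ± 0.21. Ly6c1 (-1.74) and the chemokine Cxcl12 (-0.89), which endothelium also makes, were lower, and Clec3b was at 0.27 ± 0.15 (limma adjusted p = 0.106) and passed after rescaling (0.87).

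Signalling genes around the matrix were also mostly higher. All 4 secreted Wnt modulators tested, of 18 listed, were higher (median 4.13), namely Sfrp2, Dkk3, Frzb (3.86 ± 0.21) and Sfrp1 (3.40 ± 0.18). Of 29 genes of the TGF-beta pathway 28 were higher and 0 lower (median 1.32). The 3 TGF-beta ligands were higher, Tgfb1 by 0.78 ± 0.10, Tgfb2 by 2.02 ± 0.15 and Tgfb3 by 2.78 ± 0.14, and the activin chain Inhba differed by 1.50 ± 0.13. Fst, follistatin, which traps activins, was at 7.85, 5.2, 8.32 and 21.5 RPKM in the scars and 0.0964, 0.0693, 0.0491 and 0.133 in the remote regions (3.25 ± 0.20). Of 11 genes of the insulin-like growth factor system 8 were higher and 3 lower. Igf1 differed by 1.25 ± 0.16, Igfbp4, a binding protein, by 2.39 ± 0.08 and Igfals, the subunit that stabilises the circulating complex, by -2.56 ± 0.12. Of 17 matrix metalloproteinases and their inhibitors 13 were higher and 2 lower, with Mmp3 at 3.58 ± 0.15 and Mmp2 at 2.64 ± 0.14. The inhibitors Timp1 (2.72 ± 0.27) and Timp4 (-3.04 ± 0.24) differed in opposite directions. Timp4, the form of heart muscle, was at 0.538, 0.381, 0.12 and 0.147 RPKM in the scars and 16, 11, 6.01 and 7.66 in the remote regions. Of 24 integrin genes 20 were higher, led by the integrin-like Itgbl1 (3.49 ± 0.13) and by Itga11, a collagen receptor of fibroblasts (2.75 ± 0.14), while the muscle laminin receptor Itga7 was lower (-1.06 ± 0.11).

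Heart muscle genes were lower in the scar, but by unequal amounts. The 26 cardiomyocyte genes had a median of -1.77 and ranged from -3.29 to 1.67. Tnnt2, cardiac troponin T, was at 361, 401, 294 and 321 RPKM in the scars and 881, 779, 968 and 827 in the remote regions (-1.33 ± 0.18). Actc1, cardiac alpha-actin, differed by -1.63 ± 0.21, Myl2, the ventricular regulatory light chain, by -2.45 ± 0.21 and Mb, myoglobin, by -2.59 ± 0.22. Myh6, the fast heavy chain of the adult mouse heart, was at 596, 872, 672 and 408 RPKM in the scars and 4329, 3098, 4631 and 4443 in the remote regions (-2.73 ± 0.28). Its neighbour Myh7, the slow heavy chain of the fetal heart, with 3.76 kb between the genes on chromosome 14, was at 622, 531, 483 and 319.8 RPKM in the scars and 156, 111, 102 and 275 in the remote regions and was the 1 gene of the list that was higher (1.67 ± 0.38). The scars and remote regions did not overlap in either heavy chain. Reads of these similar genes could have been split between them.

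Contraction and excitation genes were lower with few exceptions. Of 17 calcium handling genes 15 were lower and 2 higher (median -1.72). Ryr2, the calcium release channel, differed by -1.90 ± 0.17, Atp2a2, the pump that refills the store, by -2.77 ± 0.19 and Pln, phospholamban, its brake, by -2.66 ± 0.20. Itpr2, the inositol trisphosphate receptor, was higher by 0.36 ± 0.07. Of 25 ion channel genes 23 were lower and 1 was higher (median -1.59). Kcnip2, a subunit of the transient outward potassium current, was at 2.82, 4.3, 1.81 and 1.83 RPKM in the scars and 31.2, 29.1, 31.1 and 29.2 in the remote regions (-3.13 ± 0.15), and Hcn2, a pacemaker channel, differed by -1.86 ± 0.11. The remote regions agreed closely in Kcnip2, and the scars of mice B9 and B12 held the least. Of 17 genes of the intercalated disc, which joins heart muscle cells end to end, 13 were lower. Gja1, connexin 43, differed by -1.16 ± 0.15 and Dsc2, desmocollin 2, by -1.77 ± 0.09, whereas Gja5, connexin 40 of conduction tissue and arteries, was higher (0.58 ± 0.14). After rescaling to total reads the disc genes counted 5 higher and 9 lower.

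Genes of oxidative metabolism showed the most uniform deficit of the large lists. All 53 tested nuclear genes of oxidative phosphorylation were lower (median -2.35), within -3.55 and -1.72. Their summed level was 2914 to 4478 RPKM in the scars and 18957 to 21979 RPKM in the remote regions. All 25 genes of the TCA cycle (median -2.15) and all 9 mitochondrially encoded RNAs tested in this list (median -2.21) were lower too, and all of these calls remained after rescaling to total reads. Cox7a1, a muscle subunit of cytochrome oxidase, was at 108, 131, 82.2 and 60.7 RPKM in the scars and 1143, 1113, 1165 and 928 in the remote regions (-3.55 ± 0.19), Idh2, the mitochondrial isocitrate dehydrogenase, differed by -2.95 ± 0.15 and mt-Co1, subunit 1 of cytochrome oxidase, by -2.76 ± 0.22. Of 33 genes of fatty acid uptake and oxidation 31 were lower and 1 higher (median -2.72). Cd36, the fatty acid transporter, was at 112, 113, 91.8 and 69.8 RPKM in the scars and 818, 762, 704 and 593 in the remote regions (-2.90 ± 0.15), Cpt1b, the gate to mitochondrial oxidation, differed by -1.76 ± 0.09 and Lpl, lipoprotein lipase, by -3.38 ± 0.19. Bdh1, which uses ketone bodies, was among the lower ones (-2.93 ± 0.23).

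Of 17 regulators of oxidative metabolism 12 were lower and 2 higher (median -0.97), and after rescaling 6 higher and 10 lower. Ppargc1a, the coactivator of mitochondrial biogenesis, differed by -1.94 ± 0.12, Ppara by -2.35 ± 0.09, Esrrg by -1.28 ± 0.10 and Perm1, a muscle regulator of the same pathway, by -2.42 ± 0.18. The higher ones were Nr1d1, a clock repressor (1.53 ± 0.19), and Nrf1, nuclear respiratory factor 1 (0.32 ± 0.08), which was not called after quantile normalization. Of 25 glycolytic genes 19 were lower and 4 higher (median -1.41), with the insulin-regulated transporter Slc2a4 at 12.1, 14.8, 10.1 and 7.99 RPKM in the scars and 87.6, 86.4, 85.5 and 87.4 in the remote regions (-2.87 ± 0.15) and Ldha at -1.10 ± 0.11. Of 18 cardiac transcription factors 12 were lower and 1 higher, and 6 higher and 7 lower after rescaling. Hopx, a homeodomain protein of heart muscle, was at 7.2, 13, 9.98 and 6.93 RPKM in the scars and 147, 137, 127 and 91.6 in the remote regions (-3.64 ± 0.18), and Nkx2-5 differed by -1.09 ± 0.14. Tbx5, at -0.50 ± 0.11, and Gata4, at -0.67 ± 0.10, were called lower on the deposited scale only, with rescaled differences of -0.0041 and 0.01. Tbx20, a T-box factor, was higher in the scar at 73.9, 64.6, 77.6 and 83 RPKM in the scars and 29.4, 30.2, 29.3 and 33.1 in the remote regions (1.26 ± 0.15).

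Genes of the stressed and fetal heart did not act as a group. Of 16 tested, 7 were higher and 4 lower (median 0.08). Nppa, atrial natriuretic peptide, was at 4138, 5948, 4544 and 3200.4 RPKM in the scars and 334, 1082, 493 and 1316 in the remote regions (2.64 ± 0.30, limma adjusted p = 5.18e-08). Its neighbour Nppb, brain natriuretic peptide, with 13.5 kb between the genes on chromosome 4, was at 563, 475, 433 and 327 RPKM in the scars and 522, 557, 384 and 590.4 in the remote regions. The groups overlapped, the scar was above its own remote region in 2 of 4 mice, and the difference of -0.20 ± 0.24 (95% interval -0.70 to 0.30) did not pass (limma adjusted p = 0.449). Ankrd1, a stress-induced titin-binding protein, was at 2690.3, 3166, 2493 and 2042 RPKM in the scars and 1838, 3318, 1819 and 2475 in the remote regions, with a difference of 0.16 ± 0.22 (limma adjusted p = 0.505). Sprr1a, a small proline-rich protein induced by injury, was higher at 33.7, 22.4, 32.1 and 27.6 RPKM in the scars and 0.699, 1.21, 0.854 and 2.41 in the remote regions (3.75 ± 0.42), opposite to the fetal actin Acta1. Rescaled to total reads, Nppb passed as higher in the scar at 0.52 (limma adjusted p = 0.038). After quantile normalization Nppb passed at 0.80 (limma adjusted p = 0.00794), so its call depended on the scaling. Ankrd1 was at 0.89 when rescaled to total reads, and the list counted 12 higher and 4 lower.

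A ratio of 2 related genes within 1 library is not touched by the scaling between libraries, apart from the added 1. Of 26 pairs of a form typical of heart or striated muscle and a form of wider use, the ratio was lower in the scar in 24 (92.3%) and higher in 0 (0%), by a limma test with the mouse as a block, adjusted over the 26 pairs. The pairs were chosen with the region difference known, so the count describes them and stands for no other genes. Ckm to Ckb, its brain form, gave log2 ratios of 0.07, 0.02, -1.07 and -1.68 in the scars and 5.09, 4.98, 5.20 and 4.38 in the remote regions, a difference of -5.58 ± 0.33 (adjusted p = 2.30e-12). Rpl3l to Rpl3 gave -3.85, -3.93, -4.59 and -4.65 in the scars and 1.12, 0.77, 1.29 and 0.47 in the remote regions (-5.17 ± 0.25). Eef1a2 to Eef1a1, forms of the elongation factor that brings tRNA to the ribosome, differed by -3.51 ± 0.23. In the Rpl3l and Eef1a2 pairs the muscle form was above the other in 4 of 4 remote regions and in 0 of 4 scars. Myh6 to Myh7 differed by -4.40 ± 0.30, Actn2 to Actn1 by -3.97 ± 0.26 and Acsl1 to Acsl4 by -3.78 ± 0.19. The cytochrome oxidase pairs Cox6a2 to Cox6a1, Cox8b to Cox8a and Cox7a1 to Cox7a2 differed by -2.32 ± 0.20, -2.15 ± 0.23 and -1.76 ± 0.20. A pair that did not pass was Pygm to Pygb, muscle and brain glycogen phosphorylase, with -0.25 ± 0.12 (95% interval -0.50 to 0.008, adjusted p = 0.0591).

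**Figure D4:**
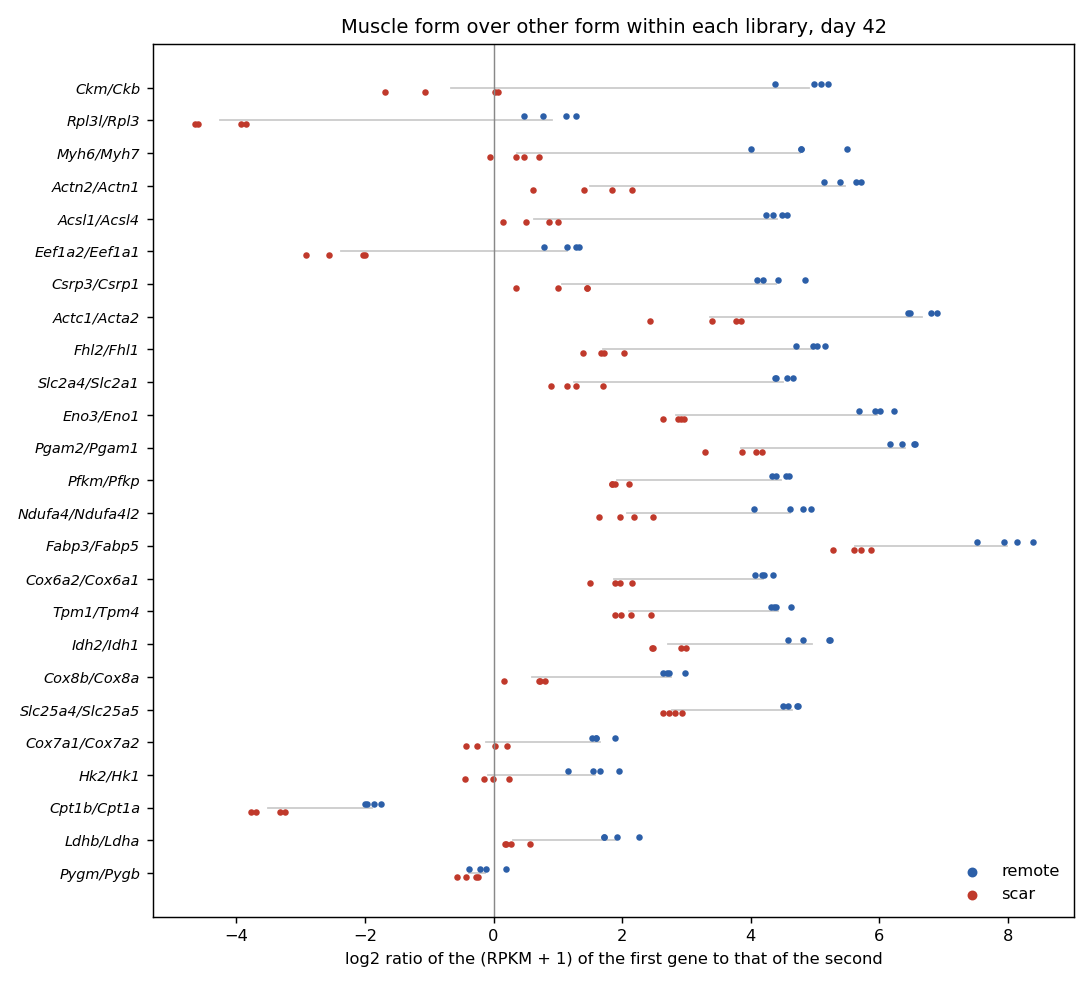
Log2 ratio of the muscle form to the other form of 25 of the 26 gene pairs in each of the 4 remote regions (blue) and 4 scars (red) at day 42, with a grey line between the means. The scar points lie to the left of the remote points in the pairs drawn, apart from Pygm to Pygb, where they mix.

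Macrophage genes were higher in the scar, but not those of all macrophages. All 20 general macrophage genes were higher (median 1.33), and their summed level was 916 to 1125 RPKM in the scars and 332 to 487 RPKM in the remote regions. Csf1r, the receptor for macrophage colony-stimulating factor, was at 27.3, 28, 27.7 and 34.2 RPKM in the scars and 11.6, 10.5, 11 and 16.4 in the remote regions (1.19 ± 0.09), C1qa differed by 1.01 ± 0.12, Lyz2, lysozyme, by 1.31 ± 0.12 and Mpeg1, perforin 2, by 2.74 ± 0.13. Ccr2, the receptor that brings monocytes out of the blood stream to tissue, differed by 1.49 ± 0.11. Of 11 genes of long-lived resident macrophages 5 were higher and 5 lower (median -0.16), and after rescaling 5 higher and 3 lower (median 0.50). Cd163, the haemoglobin scavenger receptor, was at 0.825, 1.37, 0.728 and 1.15 RPKM in the scars and 5.74, 5.29, 5.3 and 5.18 in the remote regions (-1.67 ± 0.11), and F13a1, factor XIII A, was called lower on the deposited scale only (-0.92 ± 0.13, rescaled -0.22), while Fcrls was higher (1.76 ± 0.18). Lyve1, a hyaluronan receptor of resident macrophages and lymphatic vessels, was at 14.4, 7.56, 16.3 and 6.29 RPKM in the scars and 13.1, 11, 13.1 and 9.995 in the remote regions, with overlapping groups and a difference of -0.16 ± 0.22 (limma adjusted p = 0.5), and of 0.50 after rescaling. Gpnmb, a gene of lipid-laden macrophages, differed by 2.32 ± 0.22 and Arg1, arginase 1, by 0.95 ± 0.34.

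Antigen presentation and antibody genes were higher as well. All 7 MHC class II genes tested were higher (median 1.70), with H2-Aa at 99.8, 104, 68.7 and 80.8 RPKM in the scars and 34.2, 20.5, 22.6 and 29.6 in the remote regions (1.70 ± 0.17) and Cd74, the invariant chain, at 1.88 ± 0.18. Igkc, the kappa light chain of antibodies, was at 8.4, 28.5, 18.4 and 35.5 RPKM in the scars and 1.16, 1.67, 3.45 and 2.99 in the remote regions (2.72 ± 0.58), and Ighm differed by 1.69 ± 0.31. The scars differed widely in Igkc, with mouse B1 lowest, and 4 of 26 lymphocyte genes were tested. Of 6 neutrophil genes 1 was higher and 0 were lower (median 0.04). Of 17 complement genes 15 were higher and 1 was lower. C4b differed by 2.98 ± 0.22, and Cd59a, which blocks the final pore, was the lower one (-1.21 ± 0.09). Of 21 interferon-induced genes 12 were higher and 2 lower (median 0.36), against 19 higher and 1 lower after rescaling.

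Vessel genes were split between capillary, mural and lining cells. Of 27 endothelial genes 21 were lower and 4 higher on the deposited scale (median -0.95), and 8 higher and 15 lower after rescaling. Kdr, the main receptor for vascular endothelial growth factor, was at 11.1, 10.6, 10.9 and 8.37 RPKM in the scars and 32.8, 24.9, 31.1 and 34.5 in the remote regions (-1.50 ± 0.10), and Fabp4, a fatty acid carrier of heart capillaries, differed by -2.40 ± 0.13. Pecam1, found on all endothelium, was at -0.63 ± 0.08 as deposited and at 0.07 rescaled. Plvap, which builds the diaphragms of leaky vessels, was higher at 16.4, 19.2, 17 and 17.5 RPKM in the scars and 1.56, 1.16, 1.47 and 2.64 in the remote regions (2.80 ± 0.12), as was Vwf, von Willebrand factor (0.88 ± 0.13). The groups did not overlap for Plvap or Kdr, and the genes differed in opposite directions on either scale. Among 18 genes of pericytes and smooth muscle 11 were higher and 5 lower. Contractile smooth muscle genes were higher, with Acta2 at 1.67 ± 0.21, Tagln at 2.42 ± 0.21 and Myh11 at 1.70 ± 0.13, as was Notch3 (0.39 ± 0.07). Rgs5, a pericyte gene, was lower at 71, 78, 61.4 and 60.5 RPKM in the scars and 242, 235, 255 and 214 in the remote regions (-1.79 ± 0.11), and so was Abcc9, a potassium channel subunit of pericytes that cardiomyocytes share (-2.60 ± 0.11). Of 7 lymphatic genes 5 were higher and 1 lower, the latter being Prox1 (-0.81 ± 0.14), which heart muscle also makes. After rescaling Prox1 was at -0.21 and the list counted 5 higher and 0 lower. Of 8 genes of the inner lining 6 were higher, and Tmem100 was called lower on the deposited scale only (-0.82 ± 0.16, rescaled -0.21).

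Genes of the outer lining of the heart were higher in 12 of 13 cases (median 1.76) and differed more between mice than most lists. Their summed level was 29.8, 58.9, 137 and 92.9 RPKM in the scars and 10.7, 9.93, 14.5 and 12.1 RPKM in the remote regions. Msln, mesothelin, was at 1.89, 9.18, 21 and 16.3 RPKM in the scars and 0.213, 0.153, 0.787 and 0.661 in the remote regions (2.85 ± 0.44) and Upk3b, a uroplakin of mesothelium, at 1.09, 4.05, 12.6 and 6.89 RPKM in the scars and 0.144, 0.0688, 0.487 and 0.264 in the remote regions (2.24 ± 0.35). Every scar was above every remote region for both genes, and the scars spread widely, with mouse B1 lowest and mouse B9 highest. Wt1, a regulator of epicardium that endothelium can also make, was the member that did not pass (0.01 ± 0.16, limma adjusted p = 0.939), though it passed at 0.39 after rescaling. Of 6 genes of nerve cells and their sheaths 5 were higher, with Tubb3 at 2.06 ± 0.16. All 6 red blood cell genes were lower (median -1.41), including the beta-globin Hbb-bs (-1.97 ± 0.26), whose reads a near-identical copy could share. All 4 adipocyte genes tested were lower, though all 4 are also made by other cells of the heart and the defining Adipoq and Plin1 were not tested. How far these cell types made the other differences was not tested.

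Hormone and housekeeping genes were split as well. Agtr1a, the main angiotensin II receptor, was lower at 1.68, 2.23, 2.79 and 2.29 RPKM in the scars and 16.3, 14.8, 19.1 and 17 in the remote regions (-2.46 ± 0.11), and Ace, the enzyme that makes angiotensin II, was higher at 61.9, 48.5, 47.6 and 58.2 RPKM in the scars and 15, 14.1, 12.8 and 26.5 in the remote regions (1.65 ± 0.14). Of 34 proteasome subunits 31 were lower (median -0.76), with Psmb7 at -1.22 ± 0.08, against 7 higher and 10 lower after rescaling. The 54 genes of the cytosolic ribosome had 6 higher and 14 lower (median -0.07), against 50 higher and 0 lower after rescaling, so no direction can be given for them. Of 35 cell cycle genes 12 were higher and 3 lower (median 0.19), against 27 higher and 1 lower after rescaling, and the inhibitor Cdkn2b differed by 1.66 ± 0.14. Of 15 genes in use as references 7 were higher and 8 lower, so each one was called. Over all genes tested 40.5% were called higher and 38.7% lower on the deposited scale, beside which the deposited counts of this paragraph stand. Actb, cytoplasmic actin, differed by 0.88 ± 0.11, Polr2a, the large subunit of RNA polymerase II, by 1.07 ± 0.10 and Hprt by -0.49 ± 0.11, with a rescaled Hprt difference of 0.21. There were 2370 genes without a call, and for 1124 genes the 95% interval lay within 0.25 of 0 on either side.

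The mice differed most in short RNAs and in a few matrix genes. By the SD of the paired difference over the 4 mice, the most variable well-expressed genes were Rnu12, Mir6236, Thbs4, Rps16, Acta1, mt-Rnr1, Cilp and Rny3. Rnu12, Mir6236 and Rny3 are short non-coding RNAs, and 0 of these 3 were called, though Rnu12 passed without mouse B1 (-1.35) and Rny3 after rescaling (0.70), where Rnu12 was at 0.07. Thbs4, thrombospondin 4 of tendon, was at 51.1, 35.6, 50.01 and 21.4 RPKM in the scars and 2.72, 5.39, 4.18 and 16.9 in the remote regions (2.49 ± 0.56), and Cilp, cartilage intermediate layer protein, at 146, 135, 146 and 101 RPKM in the scars and 13.2, 20.6, 14 and 52.9 in the remote regions (2.56 ± 0.39). In both, mouse B12 had the highest remote region and the lowest scar. The scar of mouse B12 had the least cardiomyocyte and mitochondrial RNA and the most fibrillar collagen RNA. Without mouse B12 the counts of the 61 lists changed by at most 2 genes, and the fibrillar collagen median was 2.46, the matricellular median 2.45 and the cardiomyocyte median -1.64. Of the most abundant RNAs, Malat1, a nuclear long RNA, was at 2188, 2217, 2304 and 2348 RPKM in the scars and 1699, 1349, 2360.4 and 1781 in the remote regions (0.36 ± 0.19, rescaled 1.09), mt-Rnr2, the large mitochondrial ribosomal RNA, differed by -1.90 ± 0.31 as deposited and by 0.26 after quantile normalization, and Rpph1, the RNA of ribonuclease P, by -0.16 ± 0.23 (limma adjusted p = 0.534). After rescaling Rpph1 differed by 0.57 (limma adjusted p = 0.0146), and Malat1 passed too.

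The region difference of day 42 was then set against that of day 21, in 4 other mice, by the test of the difference between the contrasts. It was higher at day 42 for 522 genes (4.58% of those tested) and lower for 935 (8.21%). Against day 14 it was higher for 217 (1.91%) and lower for 381 (3.35%), and both tests use the same day 42 libraries. Since only day 42 mice carry B labels, the day and whatever the letter stands for cannot be told apart in any of these. Of the 522 genes 142 were higher and 285 lower in the scar at day 42, and of the 935 genes 626 were higher and 114 lower, so both sets held more genes whose regions lay closer together at day 42 than at day 21. These counts changed with the mice included. The 522 became 283, 253 and 281 without day 42 mouse B1, B3 or B9, and 150, 221, 294 and 1045 without day 21 mouse A3, A4, A10 or A11. The 935 became 622 without B3, 441 without A3 and 495 without A4. The 217 became 111, 101 and 95 without B1, B3 or B9, and 143, 65 and 65 without day 14 mouse A4, A5 or A6. The 381 became 203, 169 and 190 without B1, B3 or B9, and 120 and 143 without A5 or A6.

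The genes named for the largest upward change at day 42 included several of the extracellular space and of macrophages. Myoc, myocilin, a secreted protein of eye and muscle, had a difference of 4.07 ± 0.20 at day 42 and 2.84 at day 21, a change of 1.23 ± 0.28 (limma adjusted p = 0.00793). F13a1 went from -2.11 to -0.92, as its scar mean was 16.1 ± 1.69 RPKM at day 42 and 7.25 ± 2.1 at day 21 (SD, n = 4), and Mgl2, a lectin of dermal-type macrophages, from -0.68 to 0.49. Mmrn1, multimerin 1 of lymphatic vessels and platelets, went from 0.63 to 1.79, Anxa8 from 1.83 to 2.94 and C4b from 1.94 to 2.98. Their limma adjusted p values for the change were 5.29e-04, 0.00681, 0.0112, 0.0115 and 0.0323. Scd4 went from -4.93 to -3.88. Rps16 had the largest change of those named (1.64 ± 0.45), but its remote value was 0.384 RPKM in mouse B3 against 6.14, 5.3 and 14 in the others, and ribosomal protein genes have many near-identical copies. Between the days the lists of the scar matrix had a median change of -0.20 for fibrillar collagens and 0.22 for matricellular genes, against 0.03 over all genes. For oxidative phosphorylation it was 0.41 and for cardiomyocyte genes 0.41. Of the 53 oxidative phosphorylation genes 11 passed the test upward, as did 22 of 54 cytosolic ribosome and 10 of 34 proteasome genes, against 4.58% of all genes. These list counts are on the deposited scale and were not taken after rescaling. Scaling to total reads cut the upward passes over all genes from 522 to 189, so the list counts may depend on the scaling. Upward passes numbered 0 of 20 general macrophage genes, 4 of 11 resident macrophage genes and 0 of 27 matricellular genes. Of the 10 fibrillar collagens 2 passed downward and of the 27 matricellular genes 1, against 8.21% of all genes.

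The genes with a lower difference at day 42 held a larger share of genes not annotated as protein coding than all genes tested did. Of the 902 that matched 1 GENCODE M21 gene, 196 (21.7%) were not annotated as protein coding, against 5 of 511 (0.979%) among the higher ones and 397 of 11090 (3.58%) of all tested. Of the 902, 138 (15.3%) lay inside a protein-coding gene, against 1.78% of all tested. The 196 were chosen by this contrast, so their levels are a description only. Their remote mean was higher at day 42 than at day 21 in 195 of 196 and their scar mean in 124 of 196. The median ratio of day 42 to day 21, taken on mean RPKM + 1, was 2.002 in the remote region and 1.07 in the scar. The added 1 pulls such ratios of low values toward 1. Gm43359 (chr5:122482800-122484999, minus strand, mm10) lies within the gene Atp2a2 on the same strand. Its mean was 45.7 ± 9.18 RPKM in the remote regions at day 42 and 6.67 ± 2.88 at day 21, and 10.5 ± 0.576 and 7.52 ± 0.846 in the scars (SD, n = 4). Neat1, the long RNA that builds nuclear paraspeckles, was at 49.5 ± 5.45 and 15.3 ± 6.56 RPKM in the remote regions and at 47.5 ± 2.74 and 49.7 ± 4.87 in the scars of the 2 days (SD, n = 4). Gm10115, within Celf2, changed by -1.71 ± 0.20. The region difference of Neat1 at day 42 was -0.06, and 0.66 after rescaling. For Gm43359 and Neat1 the remote means differed between the days by more than the scar means did.

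**Figure D5:**
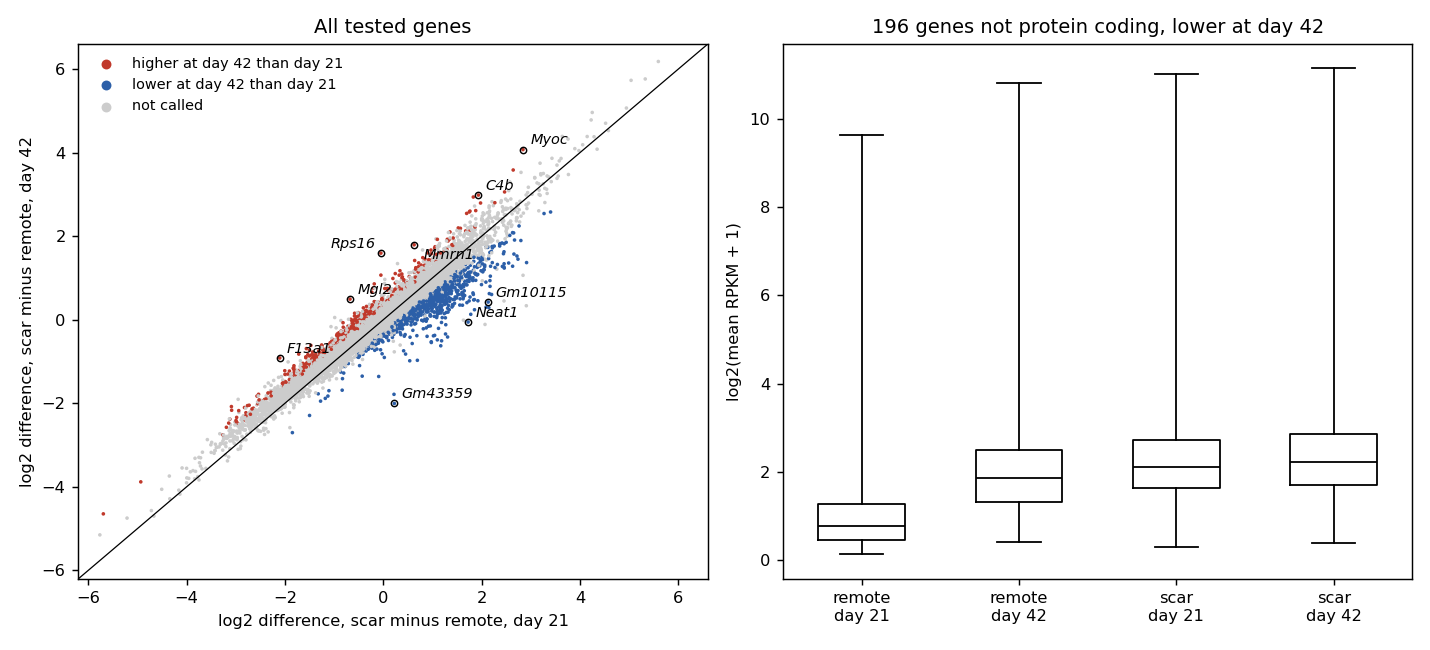
Left, log2 difference, scar minus remote, at day 21 (horizontal) and day 42 (vertical) for the 11390 genes tested, with the 522 genes higher at day 42 in red, the 935 lower in blue and the line of equal differences. Right, log2(mean RPKM + 1) of the 196 genes not annotated as protein coding among the 935, as boxes from quartile to quartile with the median and whiskers over the full range, where the remote box of day 21 lies lowest.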

How the data were processed

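RNA was measured in 40 libraries of cardiac muscle made from total RNA, per the labels' protocols with RNeasy Mini columns and a TruSeq RNA kit. The authors deposited 1 table of RPKM for 11450 genes, of which 24 were below 1 RPKM in every library. STAR, edgeR and mm10 are named without versions, per the submitters' processing notes. The choice of genes, the annotation and the scaling behind the library sizes were not given in the sources used here. Steps between low values gave whole reads, within 0.01, for 100% of the values, known up to a common factor for the library sizes, and 0 columns were identical.

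Genes with at least 1 RPKM in 4 libraries (11390) were tested on log2(RPKM + 1) with limma 3.58.1 (R 4.3.3, statmod 1.5.0) in a single model for the 40 libraries that took each mouse as a block and left 15 residual degrees of freedom, using robust moderation and a trend of variance with level. P-values were adjusted by Benjamini and Hochberg over all genes tested, with a threshold of 0.05. The same fit was tested on simulated data. Ratios of 26 gene pairs went through limma with plain moderation. Since both regions came from the same heart, the mouse pairs the libraries. At day 42 the deviations of a scar and of its partner from their group means had correlations of 0.255 to 0.410, and in 4 of 4 mice the scar correlated best with its own partner. Nothing in the labels says more about how the mice were kept or operated on. The mouse block removes level differences between animals, so p-values measure the spread of the region difference between these animals. That spread was estimated over all 20 mice of the series and not over the day 42 mice alone.

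The comparison, the 61 gene lists and the gene pairs were chosen with earlier results of these data known. Counts of a list are over its tested members. Genes were named from the 12 highest and 12 lowest differences, the key genes and extremes of each list, the 8 most changed against day 21 in each direction, the 8 most variable, the 10 most abundant of each region and the gene pairs. Col5a3, Col11a1, Prelp, Bgn, Frzb and Nrf1 were named after their values were seen. A gene pair and a few listed genes are not reported here. Symbols were matched to GENCODE M21 (mm10) for positions and types. Alternatives were other pseudocounts, filters, scalings, moderation and block settings, the day 42 libraries alone and leaving out each mouse.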

Additional observations from a re-analysis of the deposited data

Results flagged for a closer look

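In each group of 4 values, the gap of the highest or lowest value to its neighbour was set against the range of the group, and 31 of 364 groups had a gap above Dixon's 95% critical value. Chance gives this in about 1 in 20 groups. Of the 31, 20 were in mouse B12, 5 in B1, 4 in B3 and 2 in B9. The remote region of mouse B12 stood highest of the 4, in RPKM, in Fmod (2.56), Ltbp2 (9.25), Col1a1 (15.3), Col5a3 (5.54), Col4a1 (169.7), Loxl1 (25.3), Meox1 (18.2), Mpeg1 (5.68), Ccr2 (2.35), Tubb3 (2.70) and Ace (26.5), which are mostly matrix and macrophage genes. It stood lowest in Ces1d (16.9) and Pln (2356). The scar of mouse B12 was highest in Comp (705), Itgbl1 (207), Sfrp1 (101), Csf1r (34.2) and Cdkn2b (6.15) and lowest in Alpl (5.65) and mt-Rnr2 (15880.0). The remote region of mouse B1 was highest in Myot (71.0) and Idh2 (1012). The scar of mouse B1 was lowest in Col3a1 (374), Chad (2.94) and Ckb (33.9). The remote region of mouse B3 was lowest in Atp2a2 (1465) and Wt1 (0.948). The scar of mouse B3 was highest in Vwf (10.2). The scar of mouse B3 was lowest in Meox1 (23.2). The remote region of mouse B9 was highest in Dsc2 (15.7) and Gm10115 (10.4).

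The region difference itself differed between day 42 and day 21, by the limma test of the difference between the contrasts, with a positive change in Rps16 (1.64), Myoc (1.23), F13a1 (1.19), Mgl2 (1.17), Mmrn1 (1.17), Anxa8 (1.11), Scd4 (1.05) and C4b (1.05) and a negative one in Gm43359 (-2.23), Neat1 (-1.78) and Gm10115 (-1.71), on the log2 scale. Over all genes it was higher at day 42 than at day 21 for 522 genes and lower for 935, and against day 14 it was higher for 217 and lower for 381. Day and label letter cannot be told apart in these tests.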

How the results depend on the processing

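The counts of genes higher and lower in the scar stayed within 1.5 times of 4611 and 4409 under all but the following alternatives. A filter of at least 5 RPKM, which tests fewer genes, gave 3057 higher, and scaling to total recovered reads gave 8116 higher and 1903 lower. Without the replicate block, that is without pairing the regions of a mouse, there were 4493 higher and 4337 lower. Genes with a log2 difference of at least 1 numbered 1839 higher with a pseudocount of 0.1, 435 higher and 930 lower with 5, and 2962 higher and 665 lower with total scaling. The difference of day 42 from day 21 was higher for 330 genes without the block and 189 with total scaling, and lower for 475 under the stricter filter. That from day 14 was higher for 92 without the block and 106 with total scaling, and lower for 204 without the block, 171 under the stricter filter and 208 with total scaling. With 1 mouse left out, these 4 counts ranged from 150 to 1045, 441 to 1304, 65 to 290 and 120 to 511.

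Of 2543 pairs of a named gene and an alternative, 2480 kept direction and side of the threshold, 27 lost the call, 11 gained one and 25 changed sign, and 152 of 182 genes kept both throughout. Total scaling turned Nppb to 0.52, Gata4 to 0.00904, Lyve1 to 0.50, Pecam1 to 0.072, Neat1 to 0.66, Rnu12 to 0.072, Rpph1 to 0.57 and Hprt to 0.21. Quantile normalization turned Nppb to 0.80, mt-Rnr2 to 0.26, Lyve1 to 0.000398, Wt1 to -0.35, Neat1 to 0.49 and Rpph1 to 1.46, and moved the cardiomyocyte median to -0.78. A pseudocount of 0.1 turned Wt1 to -0.054 and one of 5 turned Rny3 to -0.0064. Leaving out 1 mouse at a time changed the sign of 6 named genes, none of which was called, with ranges of -0.32 to 0.018 for Nppb, -0.16 to 0.22 for Wt1, -0.11 to 0.013 for Neat1, -0.15 to 0.97 for Mir6236, -1.35 to 0.24 for Rnu12 and -0.50 to 0.35 for Rny3. The cause of these turns was not tested. With a median of 577 reads per gene and library, depth limits mainly genes near 1 RPKM.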
